A study of Mus musculus with 12 samples.

Results

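Splenic B220+ cells that still had Max were compared with and without the EuMyc transgene. The comparison used 6 RNA-seq libraries, 3 of the genotype EuMyc Max WT and 3 of the genotype Max WT. They are all libraries with those 2 genotype labels, 6 of the 12 of the study. The other 6, from Max KO and EuMyc Max KO mice, share the estimate of spread and serve in the closing comparison. Every mouse was aged 4-5 weeks and gave 1 library, and the series title calls the EuMyc cells premalignant and the Max knockout conditional. The Cre, the strain and the sex are not given in the labels. Of 24421 genes in the files, 12878 (52.7%) passed a filter on low counts and were tested. The 2 groups are called EuMyc and WT from here on, and values of single libraries are in the order of replicates 1, 2 and 3.

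MYC is a basic helix-loop-helix leucine zipper transcription factor that binds DNA, often at the E-box CACGTG, as a dimer with MAX. The MXD proteins, MXI1, MNT and MGA use the same partner and compete with MYC for it. In EuMyc mice Myc is under the control of the heavy chain enhancer of immunoglobulin genes and so is active in B lineage cells, and B cell lymphoma follows a phase in which immature B cells accumulate. B220, the antigen used to select the cells, is a form of the Ptprc product CD45 found on B cells from the progenitor to the mature stage and on plasmacytoid dendritic cells.

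Reads in genes numbered 16629314 to 17647732 per WT library and 20221681 to 21671601 per EuMyc library, with 14769 to 15067 and 14728 to 15059 genes detected. Reads that the counting assigned to no annotated feature made up 16.8% to 20.3% of all reads in WT and 12.5% to 13.7% in EuMyc. The part of this difference in the gene results was not tested. By Xist and 4 Y-linked genes (Ddx3y, Eif2s3y, Kdm5d and Uty), WT replicates 1 and 3 came from female mice, while WT replicate 2 and all 3 EuMyc libraries came from males. Only 8 genes were called for sex in the model over all 12 libraries. For single genes named here, results are therefore also given for males only, wherever that ends a call. Males only means WT replicate 2 against the 3 EuMyc libraries. List counts are those with all libraries unless stated, and several are smaller in males only. The spread in that fit comes from the other groups, so the lone WT library is assumed to vary as they do. A call lost there with a similar fold change does not show that the change is smaller. Summed markers of T, NK, conventional dendritic and monocytic cells were lower in EuMyc, and those of erythroid cells were higher, as detailed near the end. A fall of a gene in a bulk sample can come from fewer cells of a type or from less RNA per cell. A rise can likewise come from more cells of a type or stage or from more RNA per cell. These cannot be told apart here.

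Most tested genes differed between EuMyc and WT. At an adjusted p under 0.05 in edgeR's quasi-likelihood test, 9225 of 12878 genes (71.6%) were called, 4730 (36.7%) higher and 4495 (34.9%) lower in EuMyc. Of these, 31.2% changed less than 1.5-fold and 43.2% more than 2-fold. At the far ends, 337 genes were more than 8-fold higher and 286 more than 8-fold lower. The 3 libraries of one group lay wholly above or below the other group for 9967 genes (77.4%), with EuMyc above for 5119 (39.7%) and below for 4848 (37.6%). Over all tested genes the median log2 change was 0.01, with a middle 50% from -0.67 to 0.63, and the median standard error was 0.11. Every gene list is to be read against these shares. Upper-quartile scaling would shift the median of all genes by -0.13 and library totals by -0.10. In males only, 7738 genes were called, 7625 of them in the same direction as with all 6 libraries. Levels are given as CPM, read counts scaled to a common library total, so they are shares of a library and do not show whether a cell held more RNA.

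Several of the most abundant transcripts did not pass the test. Tpt1, a translationally controlled protein transcript, stood at 3596, 3015 and 3558 CPM in WT and 3157, 3186 and 3340.0 in EuMyc, and the 2 groups overlapped. Its log2 change was -0.07 ± 0.088 (95% interval -0.26 to 0.12, adjusted p = 0.485). Actg1, cytoplasmic gamma-actin, had 1690.4, 1398 and 1492 CPM in WT and 1371, 1508 and 1626 in EuMyc, again overlapping, with a log2 change of -0.02 ± 0.085 (95% interval -0.21 to 0.16, adjusted p = 0.812). The ribosomal protein genes Rps24 (log2 -0.1) and Rpl9 (0.12) were also uncalled, although Rpl9 was called in males only (0.3, adjusted p = 0.0465).

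**Figure D1:**
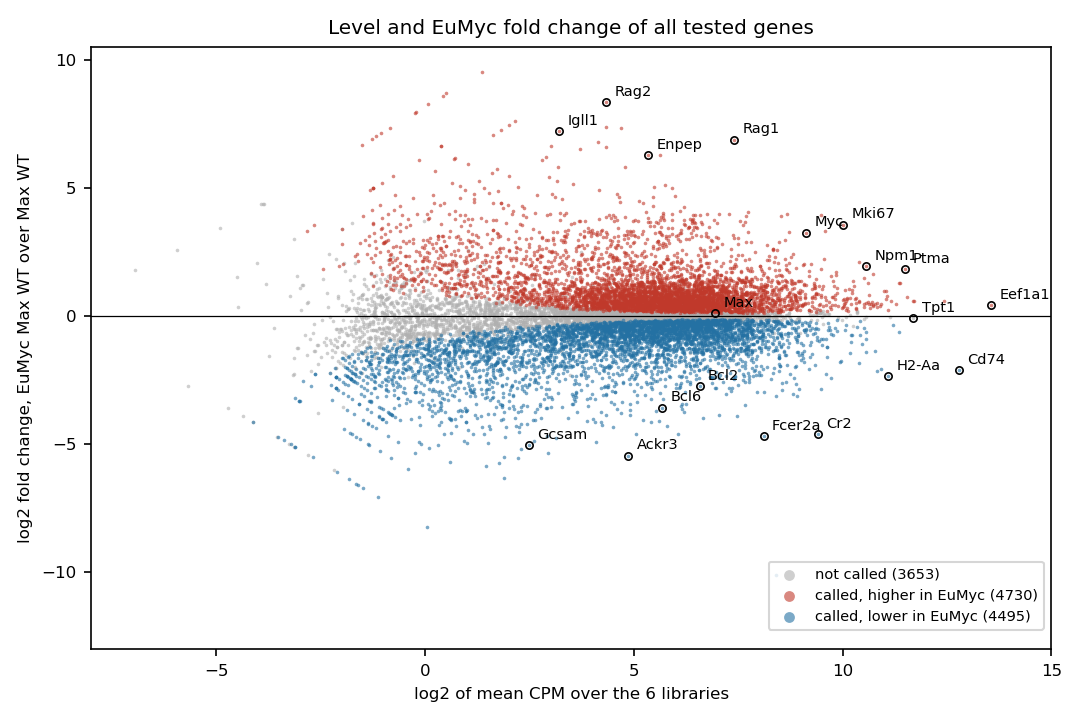
Log2 change (EuMyc minus WT, vertical) against mean level (log2 CPM over the 6 libraries, horizontal) for tested genes, with called genes in red (higher) and blue (lower) and some genes labelled. Of 12878 genes, 4730 lay above and 4495 below the zero line as called genes, at all levels of expression.

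Myc itself was higher in every EuMyc library than in any WT library. It stood at 115, 96 and 106 CPM in WT and 975, 1049 and 1007 CPM in EuMyc. The groups did not overlap, and the log2 change was 3.26 ± 0.087 (adjusted p = 7.52e-11). These counts hold endogenous and transgenic Myc reads together. Myc lies at chr15:61985391-61990374 on the plus strand of mm10. Max (chr12:76937269-76962201, minus strand) had 139, 110.3 and 108 CPM in WT and 126, 127 and 130.0 in EuMyc, and WT replicate 1 lay above all EuMyc libraries. Its log2 change of 0.1 ± 0.078 was not called with all libraries (adjusted p = 0.252), but was called without WT replicate 1 (0.20, adjusted p = 0.00376) and in males only (0.20, adjusted p = 0.0250).

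Around them, 4 of 11 tested genes of the MYC and MAX network were called higher and 2 lower, and the list's median change was 0.10. The repressor-type partners Mxd3, Mxi1 and Mxd4 rose. Mxd3, which is expressed in proliferating cells, went from 3.15, 3.69 and 3.81 CPM to 30.5, 35.5 and 33.2 CPM (3.22 ± 0.49, adjusted p = 0.000167), with no overlap. Mxi1 went from 23, 25.3 and 21.3 to 68.9, 74.9 and 76.3 CPM (1.66 ± 0.22, 5.25e-05), and every EuMyc library was above every WT library. Mxd4 rose by 0.82 ± 0.067 on the log2 scale (1.63e-07). Mycl, a MYC paralog, fell to a log2 change of -3.48 ± 0.39 (3.75e-06). Mnt (-0.12, adjusted p = 0.226), Mxd1 (0.31, 0.485) and Mlxip (-0.02, 0.874) were not called. Mnt was called lower with upper-quartile scaling (-0.25, adjusted p = 0.0246) or with library totals alone (-0.23, 0.0317). Mxd1 was called higher when only the 6 libraries were fitted (0.28, adjusted p = 0.0159). Mga (-0.26 ± 0.11, 0.051) fell just short, and was called under several alternatives, DESeq2 included (-0.27, adjusted p = 0.0362). Mlx, the partner of the MLXIP proteins, was lower by a small amount (-0.22 ± 0.079, 0.0221). This call was lost in males only (-0.16, 0.216) and without WT replicate 1 (-0.18, 0.0615) or EuMyc replicate 1 (-0.21, 0.0663).

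The largest rises were in genes of early B cell development and in genes with almost no reads in WT. Rag1 and Rag2 encode the recombinase that assembles antigen receptor genes. Rag1 (chr2:101638282-101649501) had 3.15, 3.86 and 1.49 CPM in WT and 355, 288 and 368 in EuMyc (6.88 ± 0.68, adjusted p = 1.38e-05). Its neighbour Rag2 (chr2:101624718-101632529) had 0.0573, 0.227 and 0.0596 CPM and 38.5, 38.3 and 43.7 CPM (8.36 ± 0.88, 1.13e-05). For both genes all 3 EuMyc libraries were far above all WT libraries. Igll1, the lambda5 chain of the surrogate light chain, had 0, 0.284 and 0.0596 CPM in WT and 26.3, 22.3 and 6.32 in EuMyc (7.22 ± 1.2, 0.000348). EuMyc replicate 3 was the lowest of its group for Igll1, though still above WT. The other genes of the 15 with the largest rise were Sertad4 (7.39), Rbm24 (7.35), Smtnl2 (6.79), Kcnf1 (6.64), Hspa12b (6.59), Eps8l2 (6.54), Enpep (6.29), Tmem132e (6.29), Padi3 (6.19), Fmn2 (6.1), Gfra1 (5.82) and Uchl1 (5.81). Enpep is the BP-1 antigen, a surface marker of pre-B cells, and went from 1.09, 1.48 and 0.477 CPM to 113, 60.9 and 67.8 CPM. Uchl1, a ubiquitin hydrolase, went from 1.09, 0.909 and 0.893 to 54.5, 52.2 and 56.7 CPM. Neither gene's groups overlapped. WT counts of most of these genes are a handful of reads, so their fitted fold changes rest on few counts on the WT side.

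Among the 15 genes with the largest fall were receptors of mature B cell subsets. Cr2 (chr1:195136811-195176716), the complement receptor CD21, fell from 1236, 1339 and 1342 CPM in WT to 48.6, 41.7 and 69.3 in EuMyc (-4.62 ± 0.19, adjusted p = 2.53e-09). Fcer2a, the IgE receptor CD23 of follicular B cells, fell from 406, 474 and 710.3 to 16.6, 14.7 and 30.5 CPM (-4.69 ± 0.37, 1.72e-06). S1pr3, a sphingosine phosphate receptor of marginal zone B cells, fell from 100.2, 105 and 112 to 5.75, 4.73 and 5.54 CPM (-4.3 ± 0.15, 4.91e-10). In each of the 3 genes every EuMyc library was below every WT library. Ackr3, a scavenging chemokine receptor, had the largest fall under the naming rule, from 34.3, 66.2 and 70.5 to 1.11, 0.585 and 2.19 CPM (-5.45 ± 0.45, 2.35e-06). The remaining genes of this group were Cd209d (-5.36), Gcsam (-5.04), Tlr3 (-4.92), Hs3st1 (-4.89), Ffar2 (-4.77), Cpne4 (-4.68), Stat4 (-4.6), Ptpn14 (-4.59), Alcam (-4.33), Cdh17 (-4.25) and H2-Q8 (-4.22).

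Genes were also ranked by CPM gained or lost instead of fold. Eef1a1, translation elongation factor 1 alpha, gained most, from 11148, 9300.3 and 10518 CPM to 13238, 13929 and 14028 CPM, although its log2 change was only 0.41 ± 0.078 (adjusted p = 0.000379). Ptma, prothymosin alpha, went from 1351, 1182 and 1237 to 4412, 4652 and 4368 CPM (1.83 ± 0.065, 2.97e-10). Other large gains were those of Hsp90ab1 (1.28), Hspa8 (1.3), Eef2 (0.58), Npm1 (1.94), the mitochondrial carrier Ucp2 (1.65), Mki67 (3.57), Tubb5 (2.11) and Rplp0 (0.75). The largest loss was in Cd74, the class II invariant chain, from 12326, 11070.3 and 10889.8 CPM to 2498, 2297 and 3148 CPM (-2.11 ± 0.11, 4.46e-09). H2-Aa, H2-Ab1 and H2-Eb1 followed, then Tmsb4x (-1.38), Ptprc (-1.85), Ly6e (-1.4), Cr2, Cd22 (-2.43) and Actb (-0.63). Ptprc, whose B220 form was used to select the cells, went from 2074, 2079 and 2135 to 589, 517 and 636 CPM, with no overlap.

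Genes of V(D)J recombination rose more often than they fell: 9 of 14 were called higher and 2 lower, with a median of 1.02. Beside Rag1 and Rag2, the end-joining genes Xrcc6 (2.36 ± 0.077) and Lig4 (2.23 ± 0.094) and the recombination cofactor Hmgb2 (3.32 ± 0.26) rose. The DNA polymerase gene Poll (-0.64) and Prkdc (-0.36), the DNA-dependent kinase, were lower, the latter not in males only (-0.41, adjusted p = 0.0644). Dntt, which adds nucleotides at heavy chain joints in progenitors, had 2.18, 3.86 and 4.65 CPM in WT and 9.38, 8.35 and 7.1 in EuMyc. Its groups did not overlap, but the change of 1.22 ± 0.68 was not called (adjusted p = 0.136). It was called when only the 6 libraries were fitted (1.19, adjusted p = 0.000726).

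The pre-B receptor list split by component. The surrogate light chain genes Igll1 and Vpreb1 (4.94 ± 0.79, adjusted p = 0.000107) and their relative Vpreb3, which went from 75, 67.5 and 59.7 to 165, 171 and 180.4 CPM (1.35 ± 0.13, 1.42e-06), rose. Cd79a (-1.08 ± 0.097) and Cd79b (-0.91 ± 0.10), the signalling chains shared with the mature receptor, fell, as did the adaptor Blnk (-0.28 ± 0.070) and the cannabinoid receptor Cnr2 (-2.56 ± 0.14). In all, 4 of 8 were called higher and 4 lower.

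Among surface markers of progenitors, 5 of 8 rose and 3 fell. Il7r, the receptor for the growth factor of progenitor B cells, had 7.45, 13.4 and 14 CPM in WT and 58.7, 46.1 and 45.6 in EuMyc (2.11 ± 0.32, adjusted p = 0.000177). Bst1 (2.65 ± 0.19), Cd93 (1.32 ± 0.13) and Cd24a (1.15 ± 0.18), which mark pre-B and immature B cells, rose too, with Spn (0.66). The cytokine receptors of the earliest progenitors moved the other way. Flt3 went from 6.65, 10.2 and 10 CPM to 1.35, 1.91 and 2.14 CPM (-2.31 ± 0.31, 2.56e-05) and Kit from 1.83, 2.61 and 2.32 to 0.919, 0.85 and 1.15 CPM (-1.21 ± 0.30, 0.00273). Neither gene's groups overlapped. Flt3 is also a marker of conventional dendritic cells, whose 13 tested markers summed to 2169.5 to 2242 CPM in WT and 1125 to 1222 in EuMyc. Of these 12 were called lower, and Cd209a was at 0 in EuMyc replicate 3. The list holds Irf8, also counted below as a B lineage factor, so its sum does not measure dendritic cells alone. The part of these cells in the Flt3 change was not tested.

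Transcription factors of early lymphoid cells were divided, with 9 of 16 higher and 6 lower. Myb, needed for progenitor B cell survival, went from 40.2, 44 and 35.5 CPM to 397, 403 and 362 CPM (3.28 ± 0.099, adjusted p = 1.71e-10). Sox4 went from 14, 13.5 and 12.1 to 118, 139 and 122 CPM (3.26 ± 0.11, 2.05e-10). The 3 EuMyc libraries were close together and well above WT for both. Gfi1 (1.93 ± 0.14) and Lmo4 (1.77 ± 0.080) also rose, whereas Mef2c (-1.94 ± 0.10), Bcl11a (-1.19 ± 0.078), Hhex (-1.1 ± 0.070) and Runx1 (-0.87 ± 0.062) fell. Id3, an inhibitor of E proteins, was not called (-0.14, adjusted p = 0.184), but was with upper-quartile scaling (-0.27, 0.0187) or with library totals alone (-0.25, 0.0279).

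Factors that hold B lineage identity were mostly lower, with 13 of 19 called lower and 4 higher. Pax5, the lineage commitment factor, went from 247, 244 and 229.7 CPM to 143, 136 and 151 CPM (-0.75 ± 0.073, adjusted p = 9.39e-07). Irf8 (-1.4 ± 0.081), Pou2f2 (-1.28 ± 0.070) and Foxo1 (-1.07 ± 0.097) fell further. The 4 that rose were Tcf3 (1.45 ± 0.070), the E2A gene, Pou2af1 (0.75 ± 0.078), a coactivator of octamer factors, Bach2 (0.75 ± 0.10) and Irf4 (0.62 ± 0.080). Spib (-0.03, 0.794) and Pou2f1 (-0.07, 0.64) were not called. Ebf1 was slightly lower (-0.29 ± 0.11, 0.0281), a call lost in males only (-0.36, 0.0665) and without WT replicate 1 (-0.28, 0.0649), WT replicate 2 (-0.29, 0.0624), EuMyc replicate 2 (-0.29, 0.0639) or EuMyc replicate 3 (-0.27, 0.0742).

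**Figure D2:**
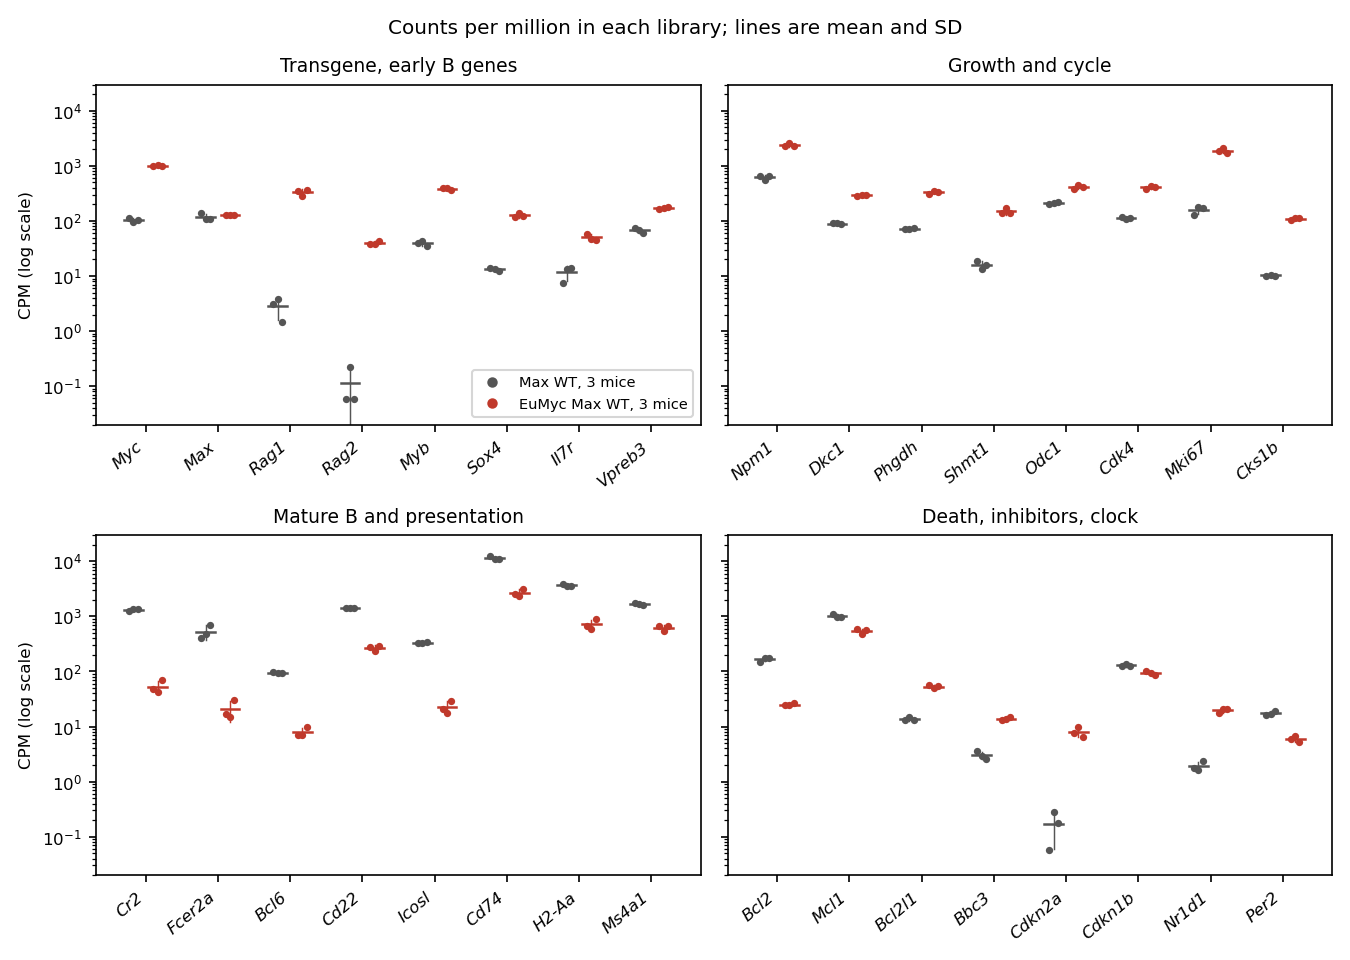
CPM of each library (points, log axis) for 32 genes in 4 panels, with WT in grey and EuMyc in red beside it, horizontal lines at group means and vertical lines of 1 SD. Rag1, Myb, Npm1 and Cdk4 lie higher in all 3 EuMyc libraries, and Cr2, Bcl6, Bcl2 and Per2 lie lower in all 3.

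Genes of follicular maturity were lower in EuMyc with 1 exception. Of 22 tested, 21 were called lower and 1 higher, with a median log2 change of -2.32. Icosl, the ligand of ICOS, went from 324, 336 and 337 CPM to 20.8, 17.4 and 29.2 CPM (-3.89 ± 0.16, adjusted p = 2.08e-09). Traf1 (-3.73 ± 0.099) and Nfkb2 (-2.33 ± 0.076) fell as well. The single gene of this list that rose was Zbtb32 (0.71 ± 0.20, 0.00611), a call not made in males only (0.57, 0.131).

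Of 21 marginal zone genes 16 were lower and 2 higher, the latter count being 1 without WT replicate 1 or EuMyc replicate 2. Sema7a (-3.85 ± 0.17), Cd9 (-2.63 ± 0.12) and Lmo2 (-2.38 ± 0.11) fell beside S1pr3. Cdkn1c, a cyclin-dependent kinase inhibitor, rose from 0.458, 0.284 and 0.238 CPM to 3.77, 4.15 and 3.81 CPM (3.55 ± 0.35, adjusted p = 9.93e-07). Of 13 B1 cell genes 7 fell and 2 rose, Cd5 (-1.97 ± 0.19) and Cd300lf (-3.26 ± 0.24) among the former. Receptors and integrins of homing were lower for 18 of 24 genes. These included Gpr183 (-3.44 ± 0.18), which positions B cells by oxysterols, S1pr1 (-2.07 ± 0.12), which governs exit from lymphoid organs, and the LFA-1 chain Itgal (-2.25 ± 0.078). Itgam (0.77 ± 0.14), Cxcr4 (0.38 ± 0.11) and Cd44 (0.35 ± 0.092) were the 3 called higher. Cd44 was not called without WT replicate 3 (0.24, adjusted p = 0.0501). Cxcr4, a retention receptor for bone marrow stroma, was not called in males only (0.31, 0.154), without WT replicate 3 (0.29, 0.0682) or without EuMyc replicate 2 (0.28, 0.0687).

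Germinal centre genes were low in EuMyc. Of 17 tested, 13 fell and 1 rose, with a median of -2.13. Bcl6 (chr16:23965052-23988852), the repressor that defines germinal centre B cells, went from 97.1, 92.7 and 92.1 CPM to 6.96, 7.07 and 9.66 CPM (-3.57 ± 0.12, adjusted p = 2.12e-10). Gcsam fell from 10.6, 11 and 11.1 to 0.145, 0.372 and 0.47 CPM. The groups did not overlap for either gene. The only list member that rose was Ezh2, a histone methyltransferase that dividing cells in general express (3.05 ± 0.13).

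The plasma cell list had 8 of 13 lower and 2 higher. Prdm1 (-2.28 ± 0.26), the regulator of plasma cell differentiation, and Xbp1 (-1.32 ± 0.13) fell. Jchain, the joining chain of IgM and IgA polymers, had 508, 926 and 1148 CPM in WT and 58.6, 48.1 and 188 in EuMyc (-3.13 ± 0.67, adjusted p = 0.00247), so that spread within each group was wide but the groups stayed apart. Slamf7, in contrast, rose from 25.2, 36.7 and 39.9 to 199.6, 183 and 199.8 CPM (2.52 ± 0.25, 7.34e-06).

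Genes of B cell receptor signalling were lower almost throughout: 24 of 25 genes were lower and none was higher, with a median of -0.91. The scaffold Bank1 (-2.58 ± 0.095), the factor Nfatc1 (-1.92 ± 0.084) and the adaptor Dapp1 (-1.24 ± 0.057) fell beside Ptprc, the phosphatase that activates SRC kinases here. Inhibitory receptors and phosphatases were also lower, with 16 of 17 lower and a median of -1.91. Cd22 went from 1436, 1437 and 1434 CPM to 274, 232 and 294 CPM (-2.43 ± 0.10, adjusted p = 6.69e-10). Ptpn22 (-2.37 ± 0.12), Pag1 (-1.91 ± 0.10) and Ptpn6 (-1.61 ± 0.072), the phosphatase SHP-1, fell too, while Csk, the kinase that restrains SRC kinases, was not called (0.04, 0.654).

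NF-kB subunits and inhibitors were lower for 19 of 20 genes. Bcl3 (-2.64 ± 0.12), Tnfaip3 (-1.81 ± 0.079), which limits NF-kB activity, and Nfkb1 (-1.2 ± 0.064) were among them, and Chuk was not called (0.07, adjusted p = 0.411). Cytokine receptors fell for 19 of 23 genes, including Il4ra (-2.48 ± 0.11), Il10ra (-2.1 ± 0.098) and Tgfbr2 (-1.34 ± 0.059). The 2 that rose were Il7r and Il2ra, the high-affinity interleukin 2 receptor chain (3.61, 4.26 and 3.69 CPM in WT and 17.4, 11.2 and 7.99 in EuMyc, 1.66 ± 0.28, 0.000124). Immediate early genes were lower for 16 of 21, with Egr1 (-2.55 ± 0.13) and Egr2 (-2.56 ± 0.12) down and Nr4a2 up (2.29 ± 0.40).

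Innate sensing and interferon genes were low. Of 18 Toll-like receptor genes 16 fell and 2 rose. Tlr7 (-2.47 ± 0.12) and Tlr9 (-1.95 ± 0.082), the nucleic acid sensors of B cells, fell, and the adaptors Tirap (0.79 ± 0.089) and Traf6 (0.53 ± 0.058) rose. Interferon response genes were lower for 25 of 31, for instance Gbp2 (-1.77 ± 0.12) and Stat2 (-0.88 ± 0.056). Rsad2 was called higher (1.95 ± 0.76, adjusted p = 0.0452), but not in males only (0.93, 0.421) and not when any single library other than WT replicate 2 was left out (0.0696 to 0.129). Macrophages and plasmacytoid dendritic cells express many genes of these lists. Monocyte and macrophage markers summed to 3345 to 4126 CPM in WT and 1609 to 1932 in EuMyc, with 18 of 22 called lower (12 in males only) and none at 0. Plasmacytoid dendritic cell markers, of a cell type that itself carries B220, summed to 2077 to 2249 CPM and 1395 to 1593 CPM, with 10 of 13 lower. The list shares Spib with the broad B cell markers, so its sum does not measure plasmacytoid dendritic cells alone. Siglech, a receptor specific to that cell type, fell (-4.15 ± 0.35), and Klk1 was at 0 in EuMyc replicate 1. The part of both cell types in the innate and interferon results was not tested.

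Antigen presentation through MHC class II fell as a block. Of 15 genes 14 were lower, with a median of -2.07. H2-Aa went from 3838, 3501 and 3629 CPM to 663, 592 and 887 CPM (-2.36 ± 0.14, adjusted p = 1.54e-08). The peptide loading genes H2-DMa (-1.96 ± 0.11), H2-DMb1 (-2.07 ± 0.096) and H2-Oa (-2.58 ± 0.20) and the transactivator Ciita (-2.0 ± 0.13) fell by similar amounts. Of the RFX subunits that bind class II promoters, Rfx5 (-0.79 ± 0.072) and Rfxank (-0.61 ± 0.12) fell less and Rfxap rose (0.59 ± 0.12). Class I genes followed with 12 of 16 lower, H2-K1 at -1.74 ± 0.084 and H2-D1 at -1.46 ± 0.085. Canx (0.63 ± 0.085) and Erap1 (0.28 ± 0.054) were the 2 higher. Dendritic cells and macrophages also present antigen through class II, and the part of their lower markers in this result was not tested.

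Genes that make ribosomes rose nearly to the last member. Of 57 assembly factors 56 were higher and none was lower, with a median of 0.98. Npm1, nucleophosmin, went from 668, 554 and 648 CPM to 2298, 2574 and 2315 CPM (1.94 ± 0.092, adjusted p = 1.61e-09). Dkc1 (1.7 ± 0.069), Nhp2 (1.86 ± 0.081) and Fbl (1.51 ± 0.065), core proteins of small nucleolar RNPs, and Nolc1 (1.53 ± 0.070) rose. The one uncalled gene was Mina (0.12, 0.235). Cytosolic ribosomal protein genes rose by smaller amounts, 68 of 79 being higher with a median of 0.49. Rps24 (-0.1) and Rpl28 (1.08) belong to this list but are not the ends of its range. Genes of cytosolic ribosomal proteins have near-identical pseudogenes, so counts of single members are uncertain. Mitochondrial ribosomal proteins were higher for 74 of 76, led in significance by Mrpl12 (1.72 ± 0.073).

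RNA polymerase I genes were higher for 15 of 20, among them Polr1b (1.2 ± 0.077). The single lower gene, Zfp12 (-0.29), stands in that list by mistake and is not part of the polymerase. RNA polymerase III genes were higher for 14 of 21, among them Gtf3a (1.24 ± 0.090). Maf1, a repressor of this polymerase, was slightly lower (-0.23 ± 0.073, adjusted p = 0.0133), although its groups overlapped. That call was lost without EuMyc replicate 1 (-0.17, 0.0665) and in males only (-0.21, 0.0892). Translation factors rose for 38 of 41, including Eif4e (1.18 ± 0.058), the cap-binding protein, and Eif2s1 (1.39 ± 0.064). Eif4a2 was the one that fell (-0.47 ± 0.079). All but 1 of 20 cytosolic tRNA synthetases were higher, the exception being Vars (0.12, 0.114), which was called without WT replicate 1 (0.16, 0.0375).

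Nucleotide synthesis moved as one pathway: 28 of 30 genes were higher, with a median of 1.44. The purine enzyme Paics (1.61 ± 0.069), the pyrimidine enzymes Umps (1.84 ± 0.082) and Ctps (2.0 ± 0.075) and the dUTPase Dut (2.7 ± 0.10) rose. The 2 that fell were Samhd1 (-0.54 ± 0.075), which degrades dNTPs, and Ctps2 (-0.42 ± 0.076). Serine and one-carbon genes were higher for 13 of 17. Phgdh, the entry enzyme of serine synthesis, went from 72.8, 71 and 74.6 CPM to 315, 343 and 333 CPM (2.18 ± 0.050, adjusted p = 2.02e-11), with no overlap. Shmt1, the cytosolic serine hydroxymethyltransferase, rose further (3.23 ± 0.13) than its mitochondrial counterpart Shmt2 (1.75 ± 0.068), a difference that was not tested. In polyamine synthesis 9 of 12 rose, among them Odc1 (1.0 ± 0.15), the rate-limiting decarboxylase, and Srm (2.07 ± 0.074), while Sat1, which acetylates polyamines for export or breakdown, fell (-0.66 ± 0.097).

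Carbon metabolism was less uniform. Glycolysis genes rose for 13 of 23 and fell for 5. Ldha, lactate dehydrogenase, went from 266, 217 and 238 CPM to 912, 1034 and 975 CPM (2.02 ± 0.079, adjusted p = 5.04e-10), and Tpi1 (1.86 ± 0.063), Pgam1 (1.44 ± 0.064) and Gapdh (1.35 ± 0.062) rose. Hk1 (-0.9 ± 0.15) and Aldoa (-0.49 ± 0.073) were lower. The glucose transporters Slc2a1 and Slc2a3 fell: Slc2a1 stood at 81.7, 75.5 and 70.4 CPM in WT and 33, 33.1 and 30 in EuMyc (-1.24 ± 0.11, 3.82e-07), with no overlap, and Slc2a3 changed by -1.16 ± 0.13 (4.78e-06). Other nutrient transporters rose, such as Slc19a1 (1.89 ± 0.081), the folate carrier, Slc29a1 (2.05 ± 0.18), a nucleoside carrier, and Slc7a5 (1.59 ± 0.19), the large amino acid carrier. In that list 13 of 22 were higher and 4 lower.

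Mitochondrial genes rose together. All 64 oxidative phosphorylation genes were higher, with a median of 0.99, for example Cycs (1.65 ± 0.061) and Atp5b (1.37 ± 0.071). Import and chaperonin genes were higher for 33 of 34, including Hspd1 (2.0 ± 0.087), and citrate cycle genes for 25 of 29, including Idh3a (1.34 ± 0.063). In lipid synthesis 13 of 30 rose and 5 fell, or 3 without WT replicate 2, EuMyc replicate 1 or EuMyc replicate 2. Elovl6, which elongates palmitate, went from 13, 15.9 and 17.2 CPM to 196, 156 and 197 CPM (3.58 ± 0.16, adjusted p = 1.88e-09) and Fasn rose (1.23 ± 0.058), but the desaturase Scd1 fell (-2.08 ± 0.12) and so did Srebf2 (-0.83 ± 0.13), the regulator of cholesterol genes.

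Promoters of some of these genes hold the E-box that MYC and MAX bind, and a few are printed to show what such sites look like in genes that rose and in genes that fell. Promoters were read from RefSeq on GRCm38.p6 (the build of mm10), as the 250 bases before the most upstream start, and 10365 of 12878 tested genes (80.5%) had one. The genes shown are, from several lists, the one with the smallest p among eligible genes whose promoter held the motif. They were therefore chosen after their values were seen. Eligible genes had a single start in RefSeq, lay outside an excluded chromosome and were not already shown. The E-box is in capitals and each sequence runs 5′ to 3′ on the strand of the gene. Cdk4 (chr10:127063343-127063534, plus strand) has 4 E-boxes between 172 and 11 bases before its start. In Paics (chr5:76951079-76951124, plus) the motif starts 203 bases before the start, in Slc16a1 (chr3:104638444-104638489, plus), a lactate transporter, 200 bases, and in Exosc5 (chr7:25659089-25659134, plus), an exosome subunit, 44 bases. The genes that fell are Gaa (chr11:119267803-119267848, plus; 140 bases), a lysosomal glucosidase, and Calr (chr8:84847130-84847175, minus; 224 bases), calreticulin.
Cdk4: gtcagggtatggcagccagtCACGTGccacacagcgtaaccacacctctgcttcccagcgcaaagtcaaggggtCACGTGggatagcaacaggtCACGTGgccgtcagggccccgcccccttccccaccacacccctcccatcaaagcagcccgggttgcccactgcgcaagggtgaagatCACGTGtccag
Paics: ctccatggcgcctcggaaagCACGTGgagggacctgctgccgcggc
Slc16a1: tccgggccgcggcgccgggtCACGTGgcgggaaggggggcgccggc
Exosc5: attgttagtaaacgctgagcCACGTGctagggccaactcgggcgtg
Gaa: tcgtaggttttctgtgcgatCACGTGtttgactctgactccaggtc
Calr: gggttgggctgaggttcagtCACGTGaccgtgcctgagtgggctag

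Of these 6 genes, Cdk4 (1.85), Paics (1.61), Slc16a1 (3.65) and Exosc5 (1.22) rose and Gaa (-0.76) and Calr (-0.34) fell on the log2 scale, Calr not as called in males only (-0.21, adjusted p = 0.0963). The motif CACGTG, which reads the same on both strands, stood in 9.43% of 3848 promoters of genes called higher, 7.94% of 3575 called lower and 8.09% of 2942 uncalled. Over all tested genes the share was 8.54%, and over all 27025 RefSeq promoters of that length 6.04%. Within 100 bases of the start the 3 shares were 4.70%, 4.53% and 4.62%. Promoters of higher genes also held more CpG dinucleotides, with a median of 17 against 14 in lower genes. Among promoters with 20 or more CpG the motif's shares were 11.4% for higher, 10.9% for lower and 10.95% for uncalled genes. Among those with fewer than 10 CpG they were 6.12% for higher, 4.09% for lower and 4.37% for uncalled genes, and for 10 to under 20 CpG 9.139%, 9.402% and 8.553%. Among genes changed more than 2-fold, 9.83% of promoters of higher and 6.93% of lower genes held the motif, with a median CpG of 16 and 9. By list, the motif stood in 7 of 22 lysosome promoters, 5 of 14 clock promoters, 6 of 26 promoters of nucleotide synthesis, 6 of 31 of translation factors, 3 of 15 of RNA polymerase III and 3 of 13 of tRNA synthetases. Among the mostly lower lists it also stood in 5 of 18 promoters of immediate early genes and 3 of 13 of MHC class I presentation. It stood in 4 of 52 promoters of ribosome assembly factors. None of 16 promoters of follicular maturity held it, nor any of 14 of serine and one-carbon genes, a mostly higher list. A motif match describes the sequence and does not show binding. Only 4 of 10365 promoters held 4 or more CACGTG, and Cdk4 is the only one of them called higher.

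Genes of cell division rose in every EuMyc library. All 50 genes of replication licensing and fork were called higher, with a median of 2.17. They include Hells (2.7 ± 0.11), Pole (2.58 ± 0.10), the leading strand polymerase, and Pold2 (1.96 ± 0.072). All 50 genes of the spindle, kinetochore and cytokinesis were called higher too, with the largest median of any list, 3.4. Mki67, the proliferation antigen Ki-67, went from 129.7, 178 and 171 CPM to 1880.2, 2079 and 1728 CPM (3.57 ± 0.40, adjusted p = 2.49e-05). Kif20b (1.76 ± 0.098), Mad2l1 (2.12 ± 0.12) and Cenpn (3.16 ± 0.19) rose beside it.

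Cyclins and their kinases were higher for 24 of 25. Cdk4, the kinase of G1, went from 116, 110.1 and 115 CPM to 382, 438 and 412 CPM (1.85 ± 0.059, adjusted p = 2.05e-10). Cks1b (3.42 ± 0.16), Wee1 (2.41 ± 0.10) and the phosphatase gene Cdc25a (1.79 ± 0.10) rose. Ccnd2, a D cyclin of mature B cells, was the one that fell, from 116, 106 and 109 to 55.3, 42.6 and 61.3 CPM (-1.06 ± 0.11, 1.52e-06). Every EuMyc library was below every WT library for Ccnd2. In the E2F and RB family 14 of 20 were higher, among them Tfdp1 (2.87 ± 0.11), the dimer partner of E2Fs, while Rbl2 (-0.84 ± 0.060), the pocket protein p130 of resting cells, fell and Rb1 was not called (0.03, 0.856).

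Inhibitors of cyclin-dependent kinases rose alongside. Of 7 tested, 5 were higher and 1 was lower. Cdkn2a (chr4:89274471-89294653), which encodes p16 and ARF from overlapping reading frames that gene counts do not separate, went from 0.0573, 0.284 and 0.179 CPM to 7.59, 9.62 and 6.53 CPM (5.46 ± 0.55, adjusted p = 1.25e-06). Cdkn2c (2.8 ± 0.31) and Cdkn1a (2.49 ± 0.40), the p21 gene, rose. Cdkn1b, the p27 gene of resting cells, fell (-0.48 ± 0.10, 0.00116). DNA damage and repair genes were higher for 38 of 44, such as Ung (2.35 ± 0.082) and Exo1 (3.33 ± 0.17), while the apical kinase genes Atm (0.05, 0.648) and Atr (0.11, 0.25) were not called.

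Genes of cell death changed in both directions. Of 7 tested pro-survival members of the BCL2 family 6 were lower. Bcl2 went from 150.1, 172 and 176 CPM to 24.2, 24.7 and 26.5 CPM (-2.72 ± 0.10, adjusted p = 3.51e-10), and Mcl1 from 1098, 989 and 962 to 593, 484 and 561 CPM (-0.9 ± 0.086, 7.7e-07). Both genes' groups were apart. The 3 Bcl2a1 copies changed by -2.15 to -3.31, but near-identical copies make their counts uncertain. Bcl2l1, which encodes BCL-XL, was the one higher, from 13.4, 15.1 and 13 to 56, 49.3 and 54.5 CPM (1.95 ± 0.48, 0.00468). This call was lost in males only (1.81, 0.0864). Erythroid cells express Bcl2l1 strongly, and the summed erythroid markers were 105 to 414 CPM in WT and 557 to 727 in EuMyc, none at 0. Their part in the Bcl2l1 result was not tested.

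Of 17 genes that promote or carry out apoptosis, 9 rose and 4 fell. Bbc3, the BH3-only gene Puma, went from 3.55, 2.96 and 2.62 CPM to 13.1, 13.7 and 15 CPM (2.19 ± 0.18, adjusted p = 1.58e-07). Bcl2l11, the gene of BIM, was not called (0.17, 95% interval 0.0 to 0.33, 0.0706). In the list of ARF and p53 pathway genes 13 of 26 rose and 7 fell. Beside Cdkn2a, Cdkn1a and Bbc3, Aen (0.89 ± 0.094) was higher. Fas (-2.8 ± 0.26), the death receptor, Sesn1 (-1.38 ± 0.061), Ddb2 (-1.08 ± 0.12) and Pml (-1.06 ± 0.083) were lower, and Mdm2 (-0.08, 0.146) and Ccng1 (0.14, 0.0759) were not called. Without EuMyc replicate 3 Ccng1 was called higher (0.21, 0.00771), and with upper-quartile scaling Mdm2 was called lower (-0.21, 0.00277).

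RNA splicing and protein turnover genes rose broadly. Spliceosome and SR protein genes were higher for 39 of 41, including Snrpd1 (1.99 ± 0.090) and Srsf3 (1.24 ± 0.059), and proteasome genes for 34 of 36, including Psmd7 (1.54 ± 0.068). The 2 proteasome genes not called were Psme1 (-0.07) and Psme2 (-0.05), activator subunits that interferon induces. ER chaperone and unfolded protein genes were higher for 5 and lower for 11 of 24, Xbp1 being among the latter. The integrated stress response list held 3 higher and 4 lower of 13. The higher count was 1 without WT replicate 3 and with upper-quartile or library-total scaling, and 5 with only the 6 libraries fitted. Lysosome genes were lower for 21 of 28. These include the regulators Tfeb (-0.77 ± 0.080) and Tfe3 (-1.08 ± 0.084), and the cathepsin gene Ctsh (-2.03 ± 0.13).

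Chromatin genes were mixed. In the Polycomb, DNA methylation and TET list 13 of 22 rose and 6 fell, and paralogs moved apart. Ezh2 went from 37.9, 38.5 and 39.8 CPM to 319, 353 and 293 CPM (3.05 ± 0.13, adjusted p = 2.21e-09), while Ezh1, the paralog of resting cells, fell (-1.03 ± 0.069, 2.8e-08). Cbx2 rose (3.33 ± 0.15) and Cbx7 fell (-1.65 ± 0.29). Dnmt1, the maintenance methyltransferase, rose (1.88 ± 0.10), and the de novo enzyme gene Dnmt3a was not called (0.04, 0.46). Variant histone and chaperone genes were higher for 19 of 21, for instance H2afz (2.41 ± 0.11) and Nasp (1.95 ± 0.068). Of 45 replication-dependent histone genes listed only 13 were tested, and 2 were called, both higher. That count was 4 without WT replicate 1 and in males only, 1 without WT replicate 3 and with DESeq2, and 0 without WT replicate 2, EuMyc replicate 2 or EuMyc replicate 3.

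Clock genes did not move together: 4 of 16 rose and 6 fell. Nr1d1, the repressor REV-ERB alpha, went from 1.78, 1.65 and 2.32 CPM to 17.6, 20.5 and 20.9 CPM (3.36 ± 0.16, adjusted p = 1.57e-09). Its target Arntl, the BMAL1 gene, rose as well (1.11 ± 0.11), as did Dbp (1.06 ± 0.099). Per2 went from 16.1, 16.7 and 19.5 to 5.85, 6.86 and 5.22 CPM (-1.54 ± 0.12, 1.3e-07) and Per1 fell (-1.04 ± 0.081). In none of these 5 genes did the groups overlap. The time of day at which mice were killed is not given in the labels.

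**Figure D3:**
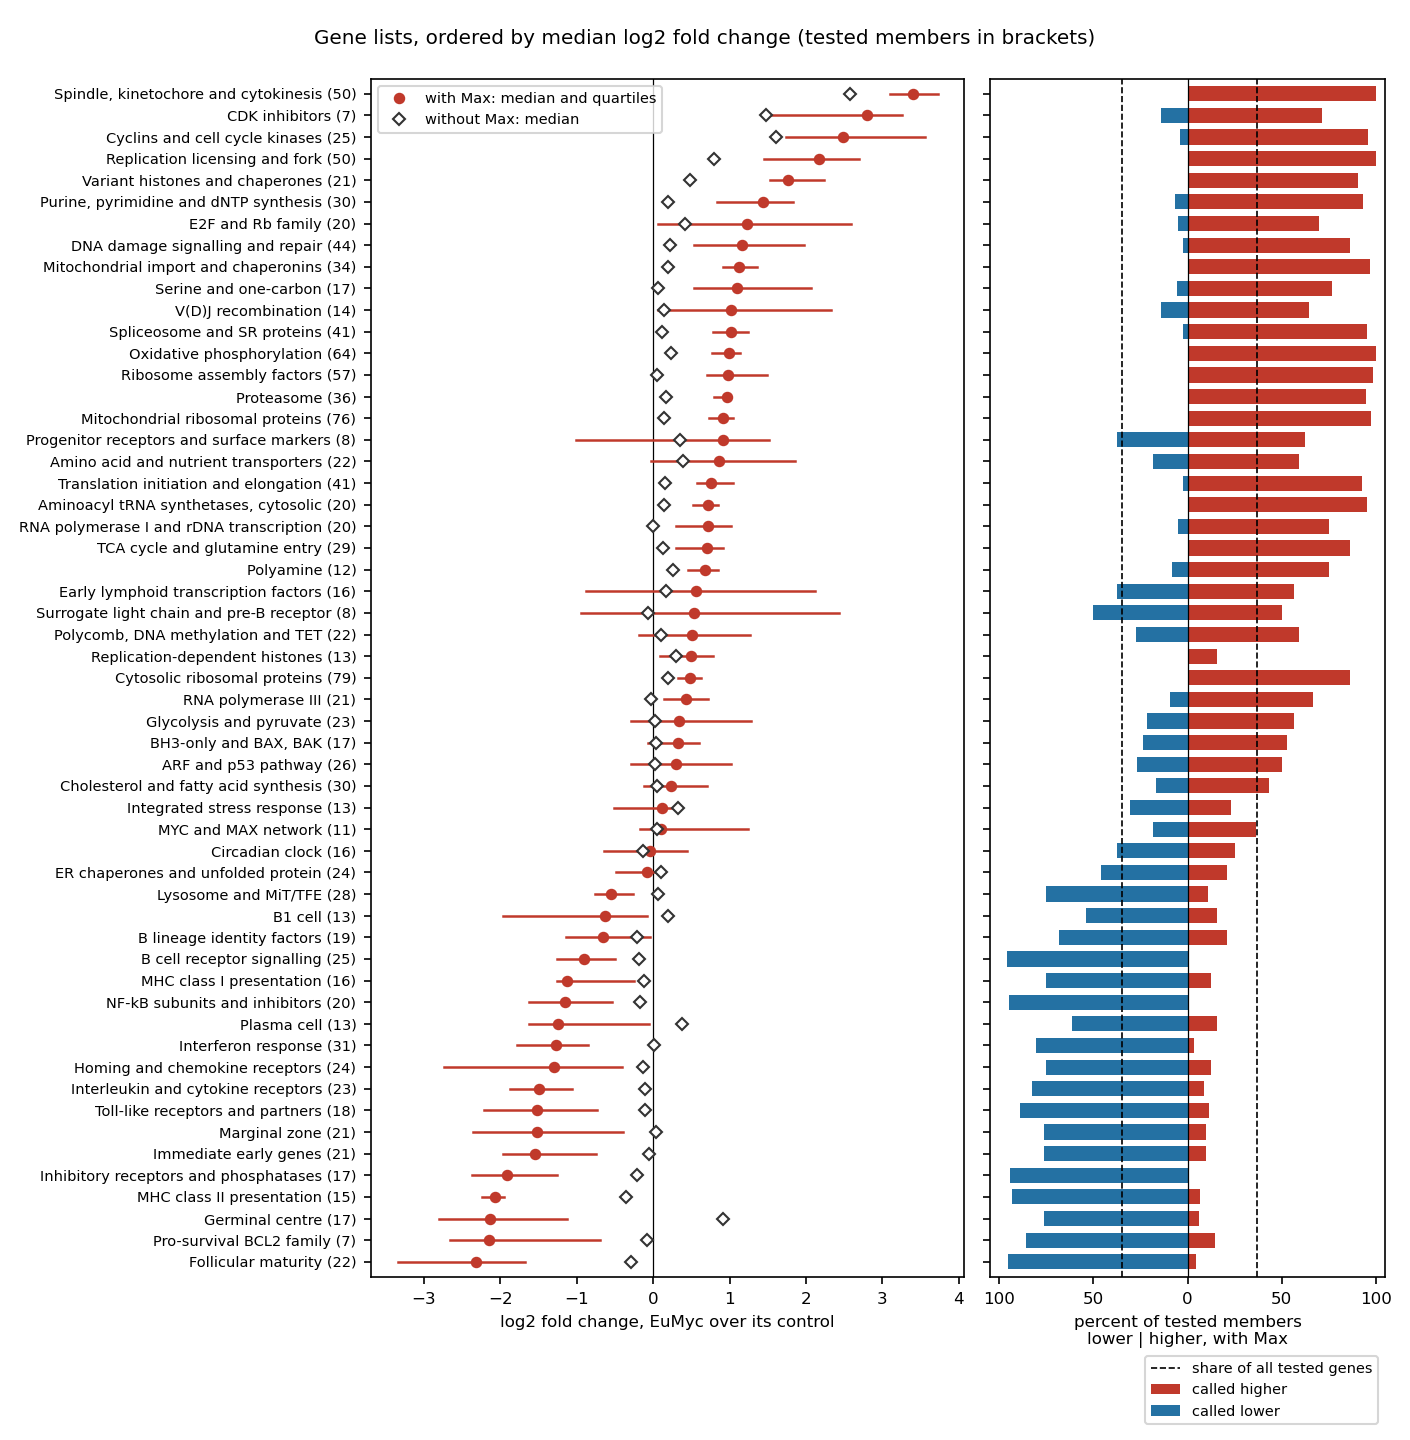
Left, median log2 change by EuMyc of each gene list, with Max (red points, quartiles as lines) and without Max (open diamonds). Right, percent of tested members called higher (red) and lower (blue) with Max, beside dashed lines at the shares over all tested genes (36.7% and 34.9%). Replication, spindle and oxidative phosphorylation lists reach 100% higher, and the follicular, B cell receptor and NF-kB lists are almost wholly lower.

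Beside the monocytic and dendritic cell markers above, those of other cell types differed too. T cell markers summed to 349 to 367 CPM in WT and 135 to 159 in EuMyc, with 18 of 19 tested called lower. The one higher was Ubash3a (2.14 ± 0.36). NK cell markers summed to 33.1 to 55.4 CPM and 5.27 to 13.6 CPM, with 8 of 11 lower. For both cell types the sums of all EuMyc libraries lay below those of all WT libraries, and Bcl11b, a T cell factor, was at 0 in EuMyc replicate 2. Neutrophil sums overlapped, at 14.1 to 23.8 CPM and 14.5 to 19 CPM.

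Erythroid markers, whose sums are given above, were the exception to these falls. Of 20 tested 14 were called higher with all libraries and 0 in males only, where the median was 1.5 against 2.18. Leaving out EuMyc replicate 3 lowered this count to 6, EuMyc replicate 1 or WT replicate 1 to 7, and WT replicate 3 to 3. By edgeR at an unadjusted p under 0.05, 0 were higher in males only. Ermap, an erythroid membrane protein, stood at 5.33, 7.84 and 1.43 CPM in WT and 24.3, 18.7 and 25.8 in EuMyc (2.23 ± 0.68, adjusted p = 0.0156), or 1.54 (0.171) in males only. WT replicate 2, the male, was the highest of the WT libraries for Ermap. Broad B cell markers summed to 14360.0 to 15682 CPM in WT and 8133 to 9066 in EuMyc, with 11 of 15 lower. Ms4a1 (-1.42 ± 0.11), the CD20 gene, was among these, and none of the 15 was at 0 in any library.

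**Figure D4:**
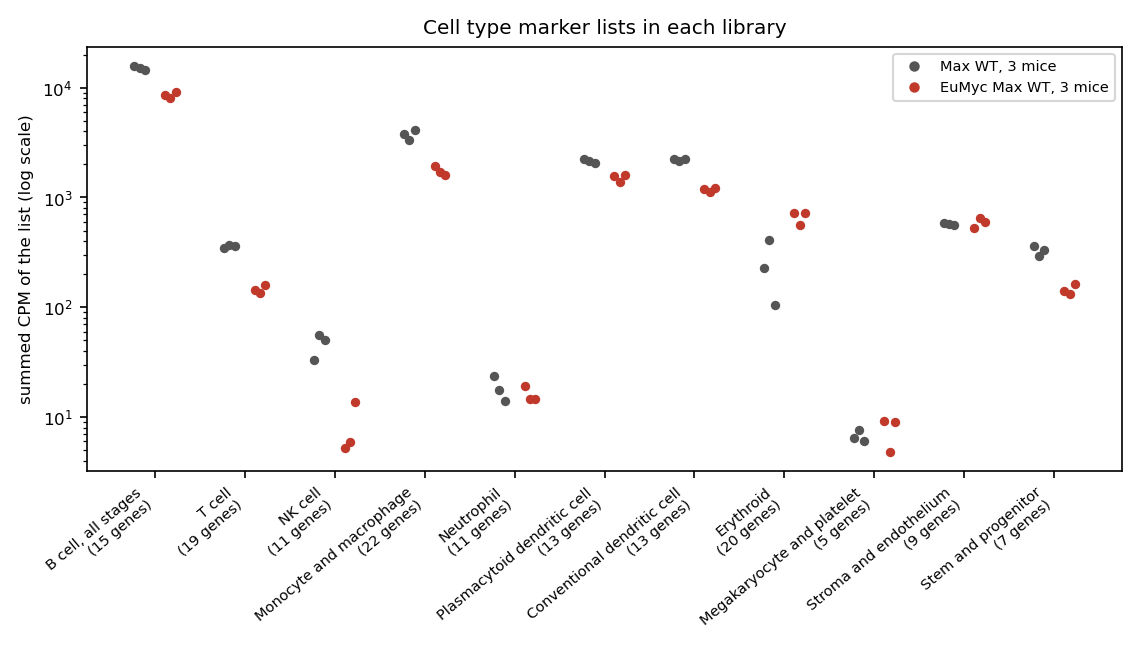
Summed CPM of marker genes of each cell type (log axis) in the 3 WT and 3 EuMyc libraries, 1 point per library. B, T, NK, monocyte and dendritic cell sums lie lower in EuMyc, erythroid sums higher, and neutrophil sums overlap.

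Whether the difference between EuMyc and its control was the same without Max was tested with the interaction. This is the EuMyc effect, meaning that group difference, in mice with Max minus that in Max KO mice. Between Max KO and EuMyc Max KO, 1853 genes (14.4%) were called, 1378 (10.7%) higher and 475 (3.69%) lower. The interaction was called for 7175 genes (55.7%). Of the 4730 genes higher with Max, 3487 had a positive interaction, 19 a negative one and 1224 none that was called. Of the 4495 lower with Max, 3311 had a negative interaction, none a positive one, and 1184 were uncalled. The interaction holds the same EuMyc minus WT difference by which these genes were chosen, so both splits partly follow from the choice. EuMyc Max KO replicates 1 and 2 stood apart from replicate 3 in erythroid genes: Ermap had 315, 214 and 60.7 CPM in that group and 5.93, 6.65 and 4.17 CPM in Max KO. With EuMyc Max KO represented by replicate 3 alone, 6364 interactions were called.

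Myc was lower in the EuMyc Max KO libraries, at 514, 565 and 487 CPM, than in the EuMyc libraries, against 136, 124 and 119.8 CPM in Max KO. Its rise of 2.05 ± 0.083 without Max differed from that with Max (interaction 1.21 ± 0.11, adjusted p = 2.33e-06). The comparison is thus not between equal levels of Myc. Max counts were 102, 102 and 99.8 CPM in Max KO and 108, 104 and 102 in EuMyc Max KO, and gene counts do not separate the deleted exons.

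Gene lists differed in how many interactions were called. Over all tested genes 27.9% of interactions were called positive and 27.8% negative. Ribosome assembly factors had a median change of 0.98 with Max and 0.05 without, and 56 of 57 interactions were positive. Oxidative phosphorylation had medians of 0.99 and 0.23, with 62 of 64 positive. Follicular genes had medians of -2.32 and -0.28, with 20 of 22 negative. Spindle genes were all called higher in both settings, with medians of 3.4 and 2.58, and 25 of 50 interactions were positive. Replication licensing and fork genes had medians of 2.17 and 0.79, with 45 of 50 positive, and cyclins and their kinases had 14 of 25 positive. Mki67 rose by 3.84 ± 0.41 without Max (interaction -0.27 ± 0.52, adjusted p = 0.678). Mki67 had 1402, 1079 and 414 CPM in EuMyc Max KO, where replicate 3 was the lowest, and 73.6, 76.6 and 51.5 CPM in Max KO. Ermap, as given above, was also lowest in replicate 3 of EuMyc Max KO. The part of erythroid cells in the rise of spindle genes and Mki67 without Max was not tested.

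Of the germinal centre genes, 13 fell with Max and none was called lower without. Their median was -2.13 with Max and 0.91 without, 7 of 17 rose without Max and 15 interactions were negative. Gcsam had 1.52, 2.05 and 1.14 CPM in Max KO and 4.06, 3.07 and 5.46 in EuMyc Max KO. It changed by 1.42 ± 0.30 without Max (adjusted p = 0.00771) and fell with Max (interaction -6.46 ± 0.47, 3.71e-07).

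Several genes of B cell stages rose more with Max than without. Myb rose by 0.62 ± 0.094 without Max, against 3.28 ± 0.099 with Max (interaction 2.65 ± 0.13, adjusted p = 4.02e-08), and Sox4 by 0.58 ± 0.10 (interaction 2.67 ± 0.15, 6.39e-08). Il7r changed by -0.44 ± 0.32 (0.392) without Max (interaction 2.56 ± 0.46, 0.000886). Rag1 had 0.113, 1.85 and 0.457 CPM in Max KO and 16.1, 11.9 and 2.29 in EuMyc Max KO, a change of 3.69 ± 0.89 (0.0263). Its interaction of 3.19 ± 1.46 was not called (0.0918), nor was that of Rag2 (3.39 ± 2.93, 0.349). Enpep changed by 0.04 ± 0.40 without Max (interaction 6.26 ± 0.60, 1.29e-05). Its neighbours at the top of the interaction, among genes also called with Max, were Rbm24 (6.16), Shank2 (6.06), Kcnf1 (5.86) and Fmn2 (5.38).

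**Figure D5:**
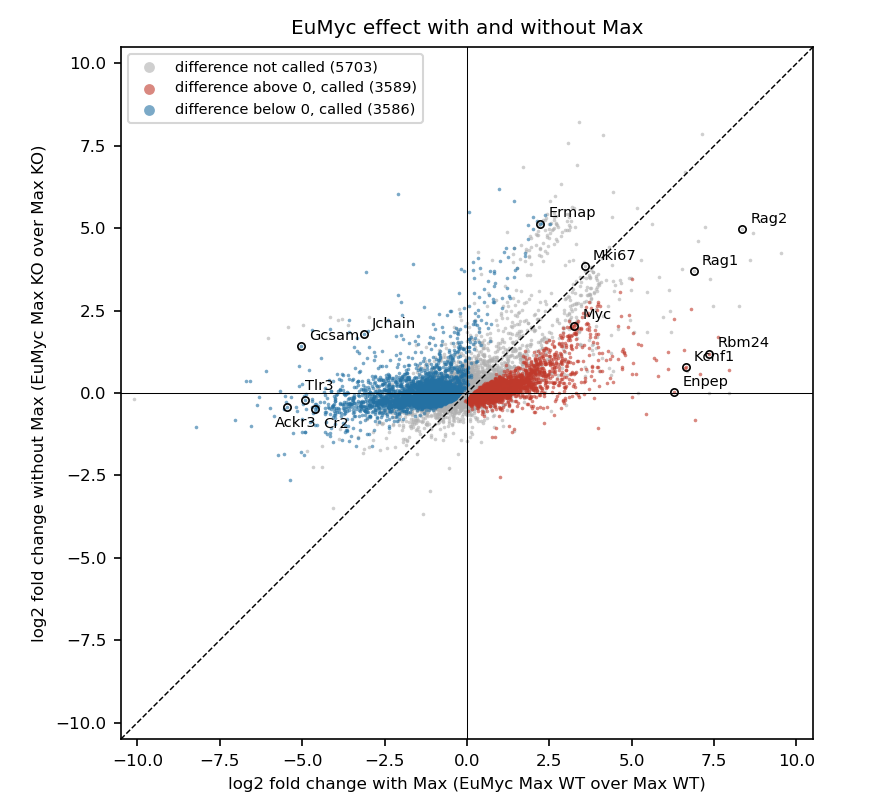
Log2 change by EuMyc with Max (horizontal, EuMyc over WT) against the change without Max (vertical, EuMyc Max KO over Max KO), 1 point per tested gene, with the dashed diagonal of equal change. The 3589 red and 3586 blue genes have a called interaction and lie mostly along the horizontal axis, Mki67 lies near the diagonal, and Gcsam and Jchain lie in the upper left.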

How the data were processed

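RNA of B220+ splenocytes was sequenced from 12 mice, 3 per genotype and 1 library each, per the labels. The authors deposited 1 table per mouse, with whole-number read counts for each gene symbol and no normalization. The submitters' processing notes name bcl2fastq 1.8.4, TopHat2 2.1.0, HTSeq 0.6.1 and mm10. Annotation, strandedness and read length are not named in the labels, and reads of overlapping or antisense genes are therefore uncertain. The 5 rows that name no gene stayed out of library sizes and tests.

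Counts were analysed in R 4.3.3 with edgeR 4.0.16. After filterByExpr on the 4 groups and TMM scaling, a robust quasi-likelihood model (glmQLFit, glmQLFTest) of all 12 libraries was used, which leaves 8 residual degrees of freedom. Calls are at a Benjamini-Hochberg adjusted p under 0.05 over all 12878 tested genes, and values after ± are standard errors of log2 changes. CPM use TMM-scaled library sizes. An exact permutation test of 3 libraries against 3 cannot go below p = 0.1. No 2 files were identical, and libraries of 1 group differed by more than sampling noise (chi-square per degree of freedom 7.81 to 14.4). The pipeline was also run on simulated counts in which few genes changed. That run cannot check the scaling or the calls where most genes differ.

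The comparison, gene lists, markers and tests were chosen with earlier results of these data known. Named genes are Myc, Max, the 15 highest and 15 lowest log2 changes among called genes with a mean of at least 5 CPM and no overlap between groups, the 10 largest gains and losses of CPM, the 5 highest and 5 lowest called interactions, 5 abundant uncalled genes whose 95% interval lay within 0.5 of 0, and, per list, the 4 smallest p among called members in each direction, 2 uncalled members of high level, all members of lists of up to 15 genes, and members called against the list's median where there were at most 3. Rankings left out antigen receptor segments, gene models without a name, haemoglobin genes and genes of small RNAs. The ranking of interactions took only genes also called between EuMyc and WT, with a mean of at least 5 CPM over those libraries. A few genes that these rules select are not reported here. A list is described by its counts and median, with no set test, and lists share some genes. Coordinates are from GENCODE vM21 (mm10), where 23376 of 24421 symbols (95.7%) were found, and promoters from RefSeq on GRCm38.p6. Alternatives covered scaling, filter, tool (DESeq2 1.42.0), libraries in the fit, a test against a 1.5-fold change, a replicate block and each library left out. Sex, read from Xist and Y-linked genes, and the group EuMyc Max KO reduced to 1 library were added after seeing the data.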

Additional observations from a re-analysis of the deposited data

Results flagged for a closer look

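The EuMyc effect differed between mice with and without Max for 7175 genes, by the interaction term of the model. Myc had an interaction of 1.21 on the log2 scale, so the rise in its total counts, endogenous and transgenic together, was larger with Max. Among genes also called with Max, at a mean of at least 5 CPM, the largest positive differences were in Enpep (6.26), Rbm24 (6.16), Shank2 (6.06), Kcnf1 (5.86) and Fmn2 (5.38). Without Max these genes changed by 0.04, 1.19, -0.63, 0.78 and 0.72 in the same order. Large negative differences were in Gcsam (-6.46), Ackr3 (-5.04), Jchain (-4.91) and Tlr3 (-4.7). Gcsam rose without Max (1.42) and fell with Max (-5.04). Jchain changed by 1.78 without Max, which was not called (adjusted p = 0.102).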

How the results depend on the processing

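Under RLE, upper-quartile and library-total scaling, both filters, DESeq2, the fit of only the 6 libraries, the fit without robust estimation, the replicate block, each library left out, the sex term and males only, 7738 to 9333 genes were called. Against a 1.5-fold change (glmTreat) 4877 genes were called, 2447 higher and 2430 lower. With 1 library left out 8604 to 8907 genes were called (4280 to 4540 higher, 4227 to 4470 lower), and 6459 to 7448 interactions (3173 to 3643 positive, 3286 to 3805 negative). With the replicate number as a block, 9181 genes (4716 higher, 4465 lower) and 7116 interactions were called. The labels give no pairing by replicate number. Deviations of same-numbered libraries correlated at -0.034, -0.004 and -0.013, and those of other pairs at -0.037 to 0.048. Such correlations over all genes cannot exclude a pairing. Of the called genes 51.3% were higher, against 44.2% with upper-quartile scaling and 45.6% with library totals.

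Over 548 named genes and 9804 alternative values, 258 lost their call and 94 gained one. None of the 428 genes called with all libraries turned its sign, while 57 of the 120 uncalled genes did under at least 1 alternative. The sex term took the call from 14 of the 548 and males only from 35. The medians of 7 of 66 lists changed sign under at least 1 alternative. That of the surrogate light chain list went to -0.32 and that of the replication-dependent histones to -0.31 under a filter of at least 5 CPM, and that of the megakaryocyte markers went to -0.55 with only the 6 libraries fitted. The cause was not tested beyond the fact that the filter tests fewer genes. The median of the MYC and MAX network was -0.02 and that of the integrated stress response -0.01 with upper-quartile scaling. The neutrophil median of 0.09 went as low as -0.39, without EuMyc replicate 1, and the clock median of -0.04 was 0.02 without WT replicate 2. Depth limits genes near 0 in WT, such as Rag2 and Igll1, whose fold changes rest on few reads, and gene counts do not resolve the exons of Max or the transcripts of Cdkn2a.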
